A study of Drosophila sechellia and Drosophila melanogaster and Drosophila simulans with 18 samples.

Results

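The genes described here make, store, take back and break down dopamine in *Drosophila*. They were chosen by symbol: pale (*ple*), Punch (*Pu*), Catecholamines up (*Catsup*), Dopa decarboxylase (*Ddc*), the Vesicular monoamine transporter (*Vmat*), the Dopamine transporter (*DAT*), ebony (*e*), tan (*t*), black (*b*) and Tyramine beta hydroxylase (*Tbh*). All 10 were found among the 17649 genes of the *D. melanogaster* table. The *D. simulans* table of 15372 genes listed 4 of them, *Catsup*, *Ddc*, *e* and *Tbh*, and the *D. sechellia* table of 17273 genes listed 0. Numbered symbols stand in place of names for 14820 genes of *D. simulans* and 16284 genes of *D. sechellia*, and the other members were not analysed in those species.

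Adult females of *D. melanogaster* (strain 14021-0231.36), *D. simulans* (strain 14021-0251.195) and *D. sechellia* (strain 14021-0428.25) were used. They were 0 to 3 days old when collected and spent 24 hr on instant medium that held either 10 mg/ml L-DOPA or none. RNA came from 10 whole flies per library, with 3 libraries per food and species and 18 libraries in all. Each species was represented by 1 strain, so strain and species cannot be told apart. The unit is FPKM, a read density corrected for gene length and library size, and every FPKM printed is the authors' deposited value, combined over the 3 libraries of a food. No spread between libraries and no depth per library can be read from such values, so they carry no SD, no n and no test.

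Dopamine is made from tyrosine in a pair of steps. Tyrosine hydroxylase adds a hydroxyl group to give L-DOPA, with tetrahydrobiopterin as its cofactor, and dopa decarboxylase removes the carboxyl group to give dopamine. In flies dopamine serves both as a transmitter in the nervous system and as a precursor of the pigments and crosslinks of the cuticle, and flies fed L-DOPA receive the product of the first step directly. The question asked of these genes is whether their expression differed between the foods.

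In *D. melanogaster*, none of the 10 genes differed by 1.5-fold or more between the foods. All genes were screened by the same rule, a minimum FPKM of 1 on one food or the other with no value of 0, which 10490 genes of the table passed. Of these, 5.60% differed by 1.5-fold or more in either direction and 12.2% had a log2 change of 0.32 or more in size, a lower limit. The members that passed the rule numbered 9, all but *Tbh*, and 0 of them reached either limit. Their log2 changes, L-DOPA over control, ran from -0.14 to 0.15 with a median of 0.11, beside a median of 0.00 and an interquartile range of -0.09 to 0.10 over the 10490 genes. A higher value on L-DOPA was listed for 7 of the 9, beside 50.9% of all genes that passed.

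The members differed far more from each other than between the foods. FPKM is corrected for length, so levels of different genes may be ordered within a table. On control food the order in *D. melanogaster* was *Catsup*, *b*, *t*, *ple*, *Pu*, *Ddc*, *Vmat*, *e*, *DAT* and *Tbh*, and *Catsup* stood 74.7-fold above *Tbh*. Neighbours in the first part of this order were close, with *t* 1.02-fold above *ple*, *Catsup* 1.12-fold above *b*, *Pu* 1.13-fold above *Ddc* and *ple* 1.14-fold above *Pu*. Larger steps lay between *b* and *t* (2.07-fold), between *Vmat* and *e* (2.01-fold), between *e* and *DAT* (2.24-fold) and between *DAT* and *Tbh* (3.72-fold). Whether neighbours differ beyond the spread between libraries cannot be read from these values. On L-DOPA the order was the same except that *t* moved from rank 3 to rank 5, below *ple* and *Pu*.

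**Figure D1:**
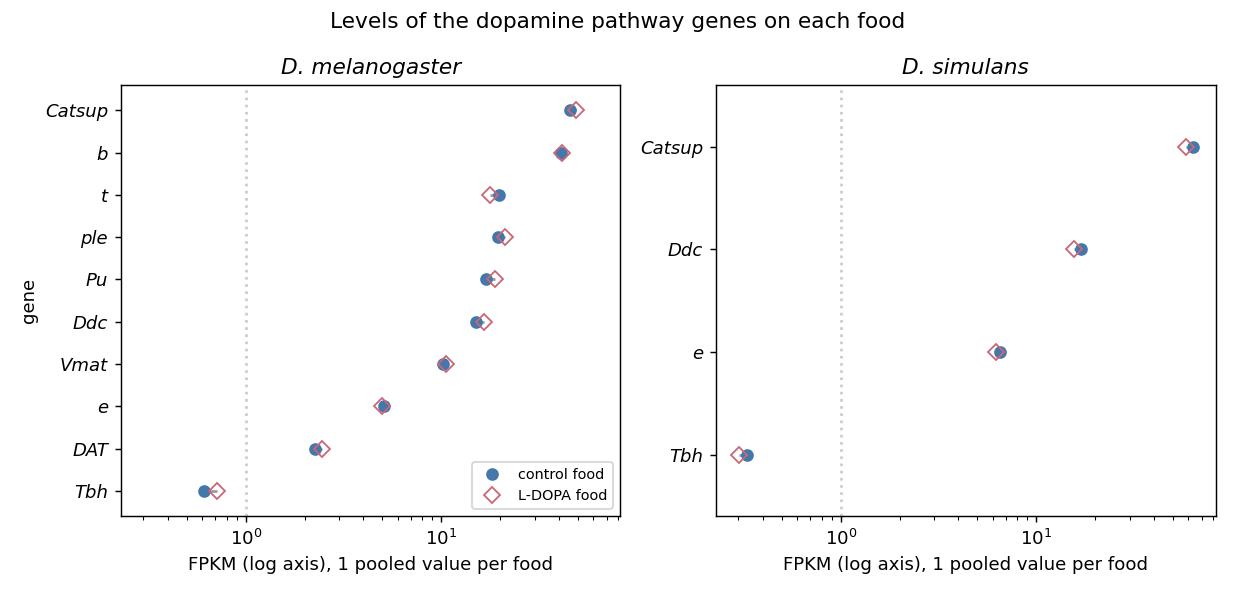
FPKM of each gene (horizontal log axis) on control food (filled circles) and L-DOPA food (open diamonds) in D. melanogaster and D. simulans, 1 pooled value per food and no error bars, with a dotted line at an FPKM of 1. The symbols of a gene lie close together at every level from Tbh, under 1 in both species, to Catsup, at 45.5 and 49.1 in D. melanogaster.

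The genes of synthesis and its regulation come first. Tyrosine hydroxylase, the enzyme that limits the rate of dopamine synthesis, is encoded by *ple* (FBgn0005626, BDGP6 chromosome 3L from 6713356 to 6719525, minus strand, 7 separate exon blocks). Its FPKM in *D. melanogaster* was 19.4 without L-DOPA and 21.3 with it, a log2 change of 0.13. To show where such a change stands, it was ranked among the genes of the same table with a mean FPKM within 2-fold, called genes of like level below. The change of *ple* exceeded that of 83.2% of 3861 genes of like level. This rank describes the libraries and is not a p-value.

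*Pu* encodes GTP cyclohydrolase, which catalyses the first step of tetrahydrobiopterin synthesis and also feeds the eye pteridine pigments (FBgn0003162, chromosome 2R from 21175315 to 21182608, plus strand, 6 exon blocks). Its FPKM was 17.0 without L-DOPA and 18.8 with it, a log2 change of 0.15 that exceeded that of 85.5% of 3986 genes of like level. No other member that passed the rule had a higher log2 change.

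*Catsup* encodes a membrane protein of the ZIP zinc transporter family that restrains tyrosine hydroxylase in *D. melanogaster* (FBgn0002022, chromosome 2L from 19041862 to 19043614, plus strand, 2 exon blocks). Its FPKM was 45.5 without L-DOPA and 49.1 with it, a log2 change of 0.11, above that of 79.4% of 2711 genes of like level. Transcripts of this negative regulator were listed 2.35-fold above those of *ple* on control food and 2.31-fold above on L-DOPA. The end of *Catsup* overlaps *Ttc19* on the other strand over 80 bases of its exons. The use of strand in counting is not given in the sources used here, so reads from the overlap cannot be assigned with certainty, and *Ttc19* stood at 15.9 without L-DOPA and 17.8 with it.

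Dopa decarboxylase, the enzyme that turns the fed L-DOPA into dopamine and also makes serotonin, is encoded by *Ddc* (FBgn0000422, chromosome 2L from 19116483 to 19120306, minus strand, 2 exon blocks). Its FPKM was 15.1 without L-DOPA and 16.6 with it, a log2 change of 0.14. The change exceeded that of 84.3% of 4032 genes of like level. *Ddc* overlaps *CG10561* on the other strand over 88 bases of its exons, and *CG10561* stood at 23.3 without L-DOPA and 24.9 with it. The ratio of *ple* to *Ddc* was 1.29 without L-DOPA and 1.28 with it.

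The synthesis genes *ple*, *Pu* and *Ddc* and the negative regulator *Catsup* thus had log2 changes between 0.11 and 0.15. Each change lay above the interquartile range of the genes of like level and within their central 95%. *Catsup* and *Ddc* are near each other on chromosome 2L. The spans the table gives for them, which include the overlapping genes, lie 69252 bases apart with 16 other genes between. Of these 16 genes, 11 passed the rule, with 3 higher and 8 lower on L-DOPA and a median log2 change of -0.07. Of all genes that passed, 50.9% were higher. Of the 11, 3 reached 0.32 in size and 0 differed by 1.5-fold or more, beside 12.2% and 5.60% of all genes that passed. The log2 changes of the 11 ran from -0.39 to 0.40. The values of the members at both ends of this interval therefore lay above the median of these 11 genes but within their range.

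**Figure D2:**
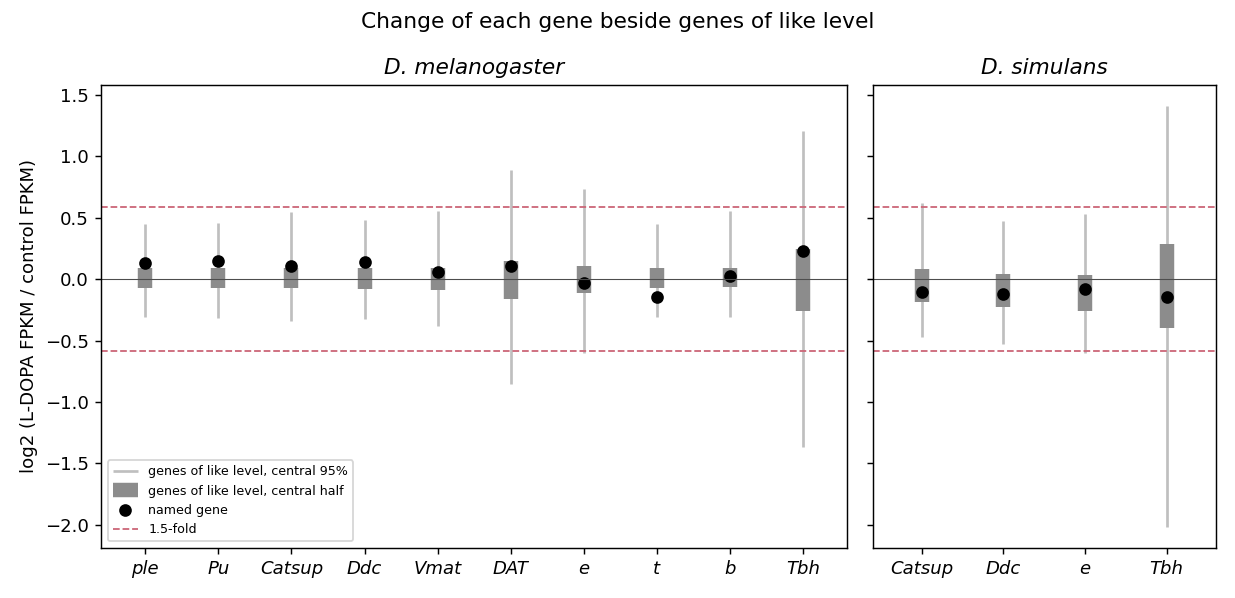
Log2 of L-DOPA FPKM over control FPKM for each gene (black points) in D. melanogaster and D. simulans, over the interquartile range (thick grey bars) and the central 95% (thin grey lines) of genes with a mean FPKM within 2-fold, with dashed lines at 1.5-fold. Every point lies between the dashed lines and within its thin grey line, and ple, Pu, Catsup, Ddc and t of D. melanogaster lie outside their thick bars.

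The transporters act after synthesis. *Vmat* loads monoamines into synaptic vesicles (FBgn0260964, chromosome 2R from 13513132 to 13534251, minus strand, 11 exon blocks). Its FPKM was 10.2 without L-DOPA and 10.6 with it, a log2 change of 0.06, above that of 67.7% of 3854 genes of like level. *CG13330* lies within the exons of *Vmat* on the other strand and was listed at 0.00129 without L-DOPA and 0.0566 with it.

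*DAT* returns released dopamine to the neuron (FBgn0034136, chromosome 2R from 16558567 to 16565238, minus strand, 8 exon blocks). Its FPKM was 2.27 without L-DOPA and 2.45 with it, a log2 change of 0.11. That value equals the change of *Catsup* to 2 decimals, yet it lay within the interquartile range of the 1815 genes of like level (-0.16 to 0.15), which is wider at this low level. *Vmat* exceeded *DAT* 4.49-fold without L-DOPA and 4.34-fold with it. Transcripts of *Vmat* serve neurons that use other amines as well, while *DAT* marks dopamine neurons.

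The turnover genes form a cycle around beta-alanine. *b* encodes an aspartate decarboxylase that makes beta-alanine (FBgn0000153, chromosome 2L from 13821248 to 13823979, plus strand, 3 exon blocks). Its FPKM was 40.7 without L-DOPA and 41.4 with it, a log2 change of 0.02. Of the 2946 genes of like level, 15.2% had a smaller change in size, the lowest such share among the members.

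*e* encodes the enzyme that joins beta-alanine to dopamine or histamine, which yields N-beta-alanyl dopamine for pale cuticle (FBgn0000527, chromosome 3R from 21229839 to 21237177, minus strand, 7 exon blocks). Its FPKM was 5.07 without L-DOPA and 4.95 with it, a log2 change of -0.03, and 45.04% of 2771 genes of like level had a lower one. The beta-alanine gene *b* stood 8.04-fold above *e* on control food.

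*t* encodes the hydrolase that splits these conjugates again, in the cuticle and in photoreceptors, where it frees histamine (FBgn0086367, chromosome X from 9217655 to 9223257, minus strand, 8 exon blocks). Its FPKM was 19.7 without L-DOPA and 17.8 with it. The log2 change of -0.14 was the lowest of the members and lay below the interquartile range of its genes of like level, of which 11.2% had a lower one. The ratio of *t* to *e* was 3.89 without L-DOPA and 3.61 with it.

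Markers of photoreceptors were listed lower on L-DOPA together with *t*. All 11 listed photoreceptor genes passed the rule and all 11 had a negative log2 change, with a median of -0.24. Of all genes that passed, 50.9% were higher on L-DOPA. Of the 11, 2 reached 0.32 in size, *trp* (-0.41) and *ninaC* (-0.38), beside 12.2% of all genes that passed. The summed FPKM of the 11 was 2648 without L-DOPA and 2378 with it. *Hdc*, which makes histamine and is on the list of genes for other amines, had a log2 change of -0.23. On that list the transporter genes *CarT* and *ine* had -0.05 and 0.03. Of the 6 genes of that list that passed, 4 were lower and 2 higher on L-DOPA. Of 12 neuron markers, 10 had a negative log2 change and 0 reached 0.32 in size. The median of the 12 was -0.10 and their summed values were 81.05 and 74.5. Their log2 changes ran from -0.26 (*brp*) to 0.03 (*Gad1*). *elav*, counted among the 10, stood at 1.20 on both foods. The part of these tissues in the values of *t* was not tested. In RNA of whole flies, fewer cells of a type and less RNA per cell cannot be told apart.

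*Tbh* encodes the enzyme that turns tyramine into octopamine and stands for the neighbouring amine branch (FBgn0010329, chromosome X from 7995697 to 8027394, plus strand, 8 exon blocks). Its FPKM of 0.610 without L-DOPA and 0.716 with it was under the minimum of 1 on both foods. The log2 change of 0.23 was the highest of the 10, but the interquartile range of the 1507 genes of like level was wide (-0.26 to 0.25) and included it. With a pseudocount of 1 FPKM the log2 change was 0.09.

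In *D. simulans*, none of the 4 members found differed by 1.5-fold or more either. Of the 9511 genes that passed the rule, 5.78% did so in either direction and 21.9% reached a log2 change of 0.32 in size. The 3 members that passed, *Catsup*, *Ddc* and *e*, reached neither limit and were all lower on L-DOPA, and their median was -0.11 on the log2 scale. The median of all genes that passed was itself -0.08 in this table, and 35.2% of them were higher on L-DOPA. Coordinates of *D. simulans* are the spans of the authors' table on ASM75419v3, with any overlapping gene included.

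*Catsup* (FBgn0084332, chromosome 2L from 18559277 to 18562525) had an FPKM of 63.1 without L-DOPA and 58.6 with it in *D. simulans*, a log2 change of -0.11. *Ddc* (FBgn0016334, chromosome 2L from 18631057 to 18636916) had 17.02 and 15.7, a log2 change of -0.12. Both were near the middle of their genes of like level, of which 38.5% and 44.3% had lower changes. As in *D. melanogaster*, the pair shares its part of chromosome 2L, with 68531 bases and 17 genes between the spans.

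*e* (FBgn0262091, chromosome 3R from 4245585 to 4252938) had an FPKM of 6.56 without L-DOPA and 6.22 with it in *D. simulans*, and its log2 change of -0.08 turned to 0.00 when changes were centred on the median gene. *Tbh* (FBgn0068641, chromosome X from 7453968 to 7486698) had 0.332 and 0.3001, under the minimum of 1, with a log2 change of -0.14. All 4 members of *D. simulans* lay within the interquartile range of their genes of like level.

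The tables of the 2 species were normalized separately, so levels are set side by side only by their place within each table. On control food, *Catsup* exceeded 83.2% of genes with an FPKM above 0 in *D. melanogaster* and 88.01% in *D. simulans*. For *Ddc* the shares were 62.8% and 69.1%, for *e* 42.2% and 51.1%, and for *Tbh* 23.1% and 21.99%. The order *Catsup*, *Ddc*, *e*, *Tbh* was the same in both species and on both foods. *Catsup* exceeded *Ddc* 3.03-fold on control food in *D. melanogaster* and 3.71-fold in *D. simulans*. *Ddc* exceeded *e* 2.97-fold and 2.59-fold. The log2 changes of *Catsup*, *Ddc* and *Tbh* had opposite signs in the 2 species, at sizes of 0.23 or less, and whether the species differ in these changes could not be tested.

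A list written by role holds 4 other genes that make or recycle the cofactor of tyrosine hydroxylase and 2 hydroxylases of other amino acids that use it. All 6 genes of this list passed the rule in *D. melanogaster*, with 4 higher and 2 lower on L-DOPA, a median of 0.08 on the log2 scale and 0 at 0.32 or more in size. *Pcd*, which helps to regenerate tetrahydrobiopterin, had an FPKM of 111.04 without L-DOPA and 128 with it (log2 change 0.21). *Dhpr*, which reduces the oxidised pterin, had 74.1 and 78.8 (0.09), and *pr*, which acts after *Pu* in the same route, had 46.3 and 45.1 (-0.04). *Hn*, phenylalanine hydroxylase, which uses the same cofactor to make tyrosine, had 70.7 and 63.7 (-0.15).

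Among 9 genes for other amines, all found in *D. melanogaster*, 6 passed the rule, with 2 higher and 4 lower on L-DOPA and a median of -0.12 on the log2 scale. The change largest in size among these 6 was that of *amd*, the paralog of *Ddc* that lies between *Catsup* and *Ddc*, at 12.8 without L-DOPA and 9.81 with it (log2 change -0.39). *Ddc* itself was listed higher on L-DOPA (log2 change 0.14). In *D. simulans*, *amd* had 11.3 and 10.1 (log2 change -0.16). The serotonin transporter gene *SerT* stood at 0.672 and 0.822 in *D. melanogaster*, under the minimum of 1.

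N-acetylation is the other main route of amine inactivation in flies. The list of acetyltransferase and beta-alanine genes had 10 members in the *D. melanogaster* table, of which 8 passed the rule. One of these, *AANATL7* (*CG13759*), stood at 0.973 without L-DOPA and 1.32 with it and so passed only through the food where it was higher. The other 7 were all higher on L-DOPA, the median being 0.16 on the log2 scale. Of the 7, 3 reached 0.32 and 1 differed by 1.5-fold or more. Among all genes that passed, including those that did so on 1 food only, the shares were 12.2% and 5.60%. The gene past 1.5-fold was *AANATL3*, which the table lists as *CG10659*. It belongs to the arylalkylamine N-acetyltransferase family and stood at 31.6 without L-DOPA and 55.9 with it. Its log2 change of 0.82 exceeded that of 98.7% of 2841 genes of like level and lay above their central 95% (-0.33 to 0.57). The main dopamine acetyltransferase gene of the family, named *Dat* in the tables and *speck* at the same start in the annotation, stood at 52.4 and 53.1 (log2 change 0.02). Breakdown of uracil also yields beta-alanine, and its 3 genes *su(r)* (0.14), *CRMP* (0.10) and *pyd3* (0.16) had small positive log2 changes.

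*Dat* was the only gene of the amine lists found in all 3 tables. It is not the transporter gene *DAT*. In *D. simulans* its FPKM was 97.7 without L-DOPA and 112 with it, a log2 change of 0.19. In *D. sechellia* (FBgn0173218, dsec_caf1 scaffold_5 from 290012 to 292582) it was 102 without L-DOPA and 61.2 with it, a log2 change of -0.74, past 1.5-fold. Of the 12098 genes of *D. sechellia* that passed the rule, 31.0% differed by 1.5-fold or more, and 6.71% of 3236 genes of like level had a lower change than *Dat*. The value lay within the central 95% of those genes (-1.26 to 1.09). Values of *Dat* in the species were not tested against each other.

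**Figure D3:**
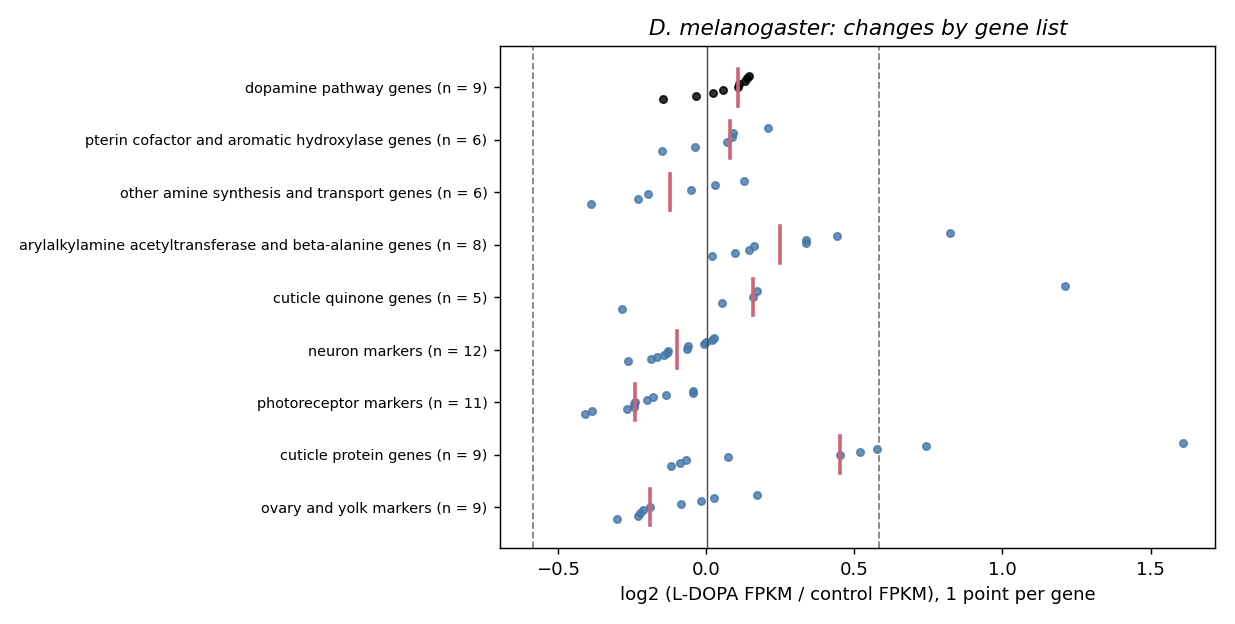
Log2 of L-DOPA FPKM over control FPKM in D. melanogaster for the genes of each list that passed the FPKM rule, 1 point per gene, with the list median in red, the median of all genes as a solid line and 1.5-fold as dashed lines. The 9 dopamine pathway genes lie between -0.14 and 0.15, all 11 photoreceptor markers lie below 0, and AANATL3 is the rightmost point of the acetyltransferase and beta-alanine genes at 0.82. AANATL7, Pburs and Cpr49Ac are among the points and in the medians drawn, but reached the minimum FPKM on L-DOPA only.

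The libraries were checked against their label of whole adult females. In *D. melanogaster* the yolk gene *Yp1* stood at 8311 without L-DOPA and 7290.04 with it and the germline gene *vas* at 49.4 and 42.6. The 12 male reproductive genes stood at 0.823 or below on both foods. Of the same list, 8 genes found in *D. simulans* stood at 0.673 or below, and 6 found in *D. sechellia* at 0.844 or below except *Acp62F* on L-DOPA (1.35, beside 0 on control food).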

How the data were processed

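Reads of 18 whole-fly mRNA libraries were checked with FastQC and aligned by the authors with Bowtie2 at its default settings, to the assemblies BDGP6, ASM75419v3 and dsec_caf1. Bowtie2 does not align reads across introns, so reads over exon junctions may be missing. The authors' deposited FPKM values come from Cuffdiff with geometric normalization and length correction, 1 value per gene and food over 3 libraries. Tool versions are not given in the sources used here. The tables also hold the authors' own fold changes, test scores, p-values and q-values, which were not used.

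Log2 changes were computed from the deposited FPKM values without a pseudocount. Genes were counted where one food or the other had a minimum FPKM of 1 and neither was at 0, and a change was called at 1.5-fold or more. The 10 members, the lists (pterin cofactor, other amines, acetyltransferase and beta-alanine, cuticle quinone, cuticle protein, neuron, photoreceptor, ovary and yolk, and male reproductive genes) and the limits were chosen with earlier results of these data known. All members are named, and listed genes may be. Symbols, or older symbols of the same gene, were matched exactly, or by identifier through a table of gene names in *D. melanogaster*. Coordinates of *D. melanogaster* are from the Ensembl annotation of BDGP6, release 115. No sequence was used. The alternatives were limits of 0.32 on the log2 scale and of 2-fold, a pseudocount of 1, no filter, centring on the median gene and a 1.5-fold window for genes of like level. The counting was tested on simulated data. Python 3.11.15, numpy 2.4.6, pandas 2.3.3 and matplotlib 3.10.9 were used.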

Additional observations from a re-analysis of the deposited data

How the results depend on the processing

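No paired analysis was possible because the tables hold 1 combined value per gene and food, and for the same reason no library could be left out. In *D. melanogaster* and *D. simulans* the count of members at the fold limit was 0 under each of the 5 alternatives (limits of 0.32 on the log2 scale and of 2-fold, a pseudocount of 1, no filter and centring on the median gene). The median log2 change of the members ran from 0.07 to 0.11 in *D. melanogaster*, where the lowest value came from leaving out *Catsup*, *Ddc* and *Vmat*, whose exons overlap another gene (chosen after seeing the data). In *D. simulans* it ran from -0.11 to -0.03, the latter with centring. Centring turned the sign of *e* in *D. simulans* (-0.08 to 0.00) and of no other member in either species, and the pseudocount turned none. With the pseudocount the log2 change of *Tbh* was 0.09 in *D. melanogaster* and -0.03 in *D. simulans*. All members that passed the FPKM rule, 9 in *D. melanogaster* and 3 in *D. simulans*, reached an FPKM of 1 on both foods, a stricter minimum that was chosen after seeing the data. No result was computed for the members in *D. sechellia*, where none was found by symbol. With no spread between libraries at hand, no difference between the foods, small or large, could be set against the variation of libraries.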

Other observations

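The list of cuticle quinone genes also holds the subunits of the tanning hormone bursicon and their receptor. Its genes that reached an FPKM of 1 on both foods in *D. melanogaster* had log2 changes from -0.28 (*yellow-f*) to 0.17 (*yellow-f2*). Of 8 cuticle quinone genes found, 5 passed the FPKM rule, 1 of them (*Pburs*) only through L-DOPA, where it was higher. Of the other 4, 3 were higher and 1 lower on L-DOPA, with a median of 0.11 on the log2 scale. The laccase gene *laccase2*, which oxidises catecholamines in new cuticle, stood at 3.60 without L-DOPA and 3.74 with it. *Pburs*, which encodes a subunit of the tanning hormone bursicon, stood at 0.586 and 1.36, a log2 change of 1.21 that became 0.57, under 1.5-fold, with a pseudocount of 1 FPKM (chosen after seeing the data). Its partner subunit *Burs* stood at 0.212 and 0.405, under the minimum of 1.

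A list of 10 cuticle protein genes, written as markers of young flies and not as the whole class, was also checked in *D. melanogaster*. Of the 9 that passed the rule, *Cpr49Ac* did so only through L-DOPA, where it was higher. Of the other 8, 5 were higher and 3 lower on L-DOPA, the median being 0.26 on the log2 scale. Of these 8, 4 reached a log2 change of 0.32 in size and 1 differed by 1.5-fold or more. Among all genes that passed, including those that did so on 1 food only, the shares were 12.2% and 5.60%. The gene past 1.5-fold was *Acp1*, an adult cuticle protein gene, at 218 without L-DOPA and 364 with it (log2 change 0.74). Its change exceeded that of 97.8% of 583 genes of like level and lay above their central 95% (-0.38 to 0.68). *Cpr49Ac* stood at 0.818 and 2.50 (1.61, or 0.94 with the pseudocount). The yellow gene *y* was found in all 3 tables, at 0.237 and 0.251 in *D. melanogaster* (log2 change 0.08), 1.57 and 1.19 in *D. simulans* (-0.40) and 12.04 and 15.3 in *D. sechellia* (0.34). Changes smaller in size than that of *y* were listed for 73.9% of genes of like level in *D. simulans* and 46.4% in *D. sechellia*.

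Of 9 ovary and yolk genes of *D. melanogaster*, 7 had a negative log2 change, with a median of -0.19. Of all genes of that species that passed the rule, 50.9% were higher on L-DOPA. Of 4 found in *D. simulans*, 3 were lower on L-DOPA, *nos* (log2 change -0.42), *bam* (-0.42) and *otu* (-0.51). *Yp2* was higher (0.48), and the median of the 4 was -0.42. Only 35.2% of all *D. simulans* genes that passed were higher on L-DOPA. Of 2 found in *D. sechellia*, both were lower, *Yp2* (-0.78) and *nos* (-0.45). Among all *D. sechellia* genes that passed, 57.9% were higher on L-DOPA and 31.0% differed by 1.5-fold or more in either direction. A lower change than that of *Yp2* was listed for 16.7% of its 78 genes of like level. For *nos* the share was 21.3% of 1350 genes.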
